A study of Mus musculus with 22 samples.

Results

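The choroid plexus of the fourth ventricle (4V ChP) was compared between mice labelled Otx2+/AA and wildtype mice, in 2 pools of each genotype. These 4 of the 22 samples of the series were chosen by their genotype and tissue labels alone. In the Otx2+/AA mice 1 copy of Otx2 carries the allele named AA and the other copy is wildtype, and neither the labels nor the study's text describe what AA changes. The run held 2 further 4V ChP pools labelled Otx2 (+/-), which correspond to the constitutive Otx2+/GFP heterozygotes of the study and are used here only beside the Otx2+/AA values. All 6 pools carry the strain label B6D2. The label does not show that the pools held the same background alleles, and the part of such alleles in the values was not tested. Each pool joined the tissue of several mice, and the number and age of the Otx2+/AA mice are not given in the sources used here. Duplicates may have been drawn from the same mice, so p-values measure the spread between these pools, which may be technical. RNA was depleted of ribosomal RNA and sequenced as strand-specific libraries with 50-base reads, 6 libraries to a lane. The 6 files hold 36934922 to 43790479 counts each. The pools of a group differed by more than sampling noise (chi-square per degree of freedom over genes 15.3 in wildtype, 18.7 in Otx2+/AA and 15.5 in the third genotype), so each pool was counted as a library of its own. Wildtype pool A stood farthest from the other pools on the second principal component, which held 23.6% of the variance.

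The choroid plexus is a sheet of cuboidal epithelium over a vascular stroma that makes cerebrospinal fluid, by moving ions and water from blood to ventricle, and secretes proteins such as transthyretin and insulin-like growth factor 2 into it. OTX2 is a homeodomain transcription factor that the tissue needs to form in the embryo and that its epithelium keeps making in the adult. Its homeodomain belongs to the class that recognizes the letters TAATCC in DNA. In bulk tissue of this kind, fewer cells of a type and less RNA per cell cannot be told apart.

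The Otx2 mRNA of the Otx2+/AA pools lay within the range of wildtype. Values below are normalized counts, which are deposited counts of 1 transcript per gene scaled for library size and composition over the 6 pools. Otx2 (ENSMUSG00000021848, chromosome 14) stood at 6994 and 5927 in the wildtype pools and at 6603 and 6904 in the Otx2+/AA pools. Both Otx2+/AA values fell between the wildtype values, and the log2 fold change was 0.06 (SE 0.13, adjusted p = 0.958, edgeR's quasi-likelihood test, Benjamini-Hochberg adjusted over all genes). All 8 annotated Otx2 transcripts were tested, their log2 fold changes ran from -0.12 to 0.07, and 0 passed. The lowest of their adjusted p-values was 0.911, and 0 had an unadjusted p under 0.05. The pools labelled Otx2 (+/-) stood at 20049 and 17235, above every other pool. Of the 8 transcripts, 7 were higher in those pools than in wildtype and Otx2-206 was lower, at 926 and 693 against 1265 and 1068. Counts of whole transcripts separate neither the exons nor the copies of the gene, so these values do not decide whether a copy was lost. The study reports fewer reads over an exon of this gene in its constitutive heterozygotes, which counts per transcript cannot check. These pools are called by their label throughout. With the AA allele not described, the Otx2 count does not check the Otx2+/AA label.

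Between Otx2+/AA and wildtype, 50 of 14494 genes tested passed an adjusted p of 0.05, which is 0.345% of them. The 25 genes that rose had log2 fold changes of 0.778 to 2.41 (median 1.26) and 17 of them changed at least 2-fold. The 25 that fell included 18 with at least a 2-fold change and had a median log2 fold change of -1.18. In each of the 50 genes, both Otx2+/AA pools lay on the same side of both wildtype pools. The genes were chosen on these same pools, so this separation is no further evidence. At an unadjusted p under 0.05 there were 1292 genes, 8.91% of those tested. By annotation 48 of the 50 code for protein, 1 is an antisense RNA and 1 a small nucleolar RNA. With libraries scaled to their total counts in place of TMM factors, 28 genes rose and 10 fell, and the median of all genes moved from -0.01 to 0.11 on the log2 scale.

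**Figure D1:**
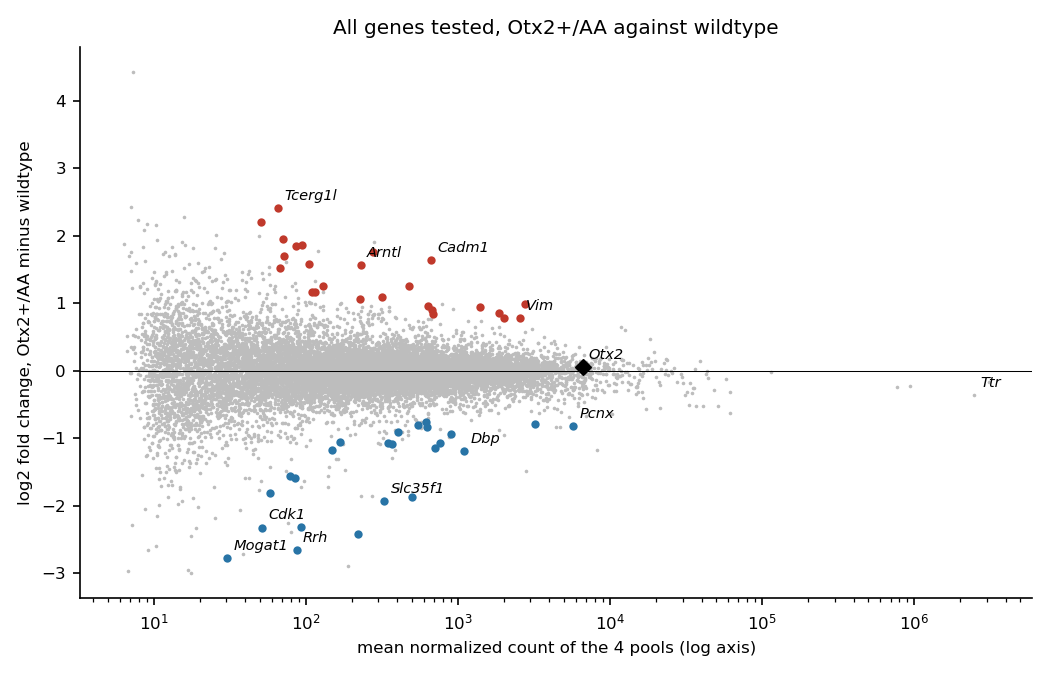
Log2 fold change of Otx2+/AA minus wildtype (vertical axis) against the mean normalized count of the 4 pools (horizontal log axis) for each gene tested. Red points are genes that rose and blue points genes that fell at an adjusted p of 0.05, grey points did not pass, the black diamond is Otx2 at 0.06, and Ifi202b, at 0 in both Otx2+/AA pools, is left out because its fitted value is no measurement of size.

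Calls that passed under each of the 9 other ways of processing and with each of the 4 pools left out in turn numbered 13. Of these, Arntl, Cadm1, Lrrc18, Scrn1 and Wfikkn2 rose, and Amigo2, Btn2a2, Cdk1, Cpxm2, Dbp, Rrh, Slc35f1 and Tmprss11a fell. Without Otx2+/AA pool A, 28 of the 50 calls no longer passed. Those lost among the genes with the largest changes were 1500009C09Rik, Arhgap20, C130021I20Rik, C1ql3, C3, Cltrn, Cybrd1, Fam216b, Fndc1, Ifi202b, Lmx1b, Mcoln3, Mogat1, Rab6b, Sema3e, Steap3 and Tcerg1l. The rest were Abcg2, Cdh1, Gm22357, H2-Eb1, Ildr2, Pcnx, Pdia3, Slc24a4, Slc39a4, Tmod1 and Tubb4a. Leaving out Otx2+/AA pool B ended 12 calls, those of Abcg2, Arhgap20, C1ql3, Cybrd1, Edn3, Gm22357, Lmx1b, Pcp4, Sebox, Slc24a4, Tmod1 and Tubb4a. Without wildtype pool A, Gm22357, Ildr2 and Slc24a4 no longer passed, and without wildtype pool B only H2-Eb1 did not.

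Of the 8 falls that passed in every alternative, Dbp is described with the clock genes below. Slc35f1, of the nucleotide sugar transporter family SLC35, stood at 515 and 525 in the wildtype pools and at 146 and 128 in the Otx2+/AA pools. This was a 3.80-fold difference, with a log2 fold change of -1.93 (SE 0.17, adjusted p = 0.000299), and the levels in the pools labelled Otx2 (+/-) were 120 and 68.0. Rrh, which encodes peropsin, an opsin of the retinal pigment epithelium, was at 163 and 139 in wildtype and at 27.4 and 20.2 in Otx2+/AA. Its log2 fold change was -2.66 (SE 0.28, adjusted p = 0.00149). Here the Otx2+/AA pools kept more mRNA than the pools labelled Otx2 (+/-), at 0.985 and 5.0, and the direct comparison passed (log2 difference 2.95, SE 0.67, adjusted p = 0.0331).

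Cdk1, the kinase that drives entry into mitosis, was at 83.9 and 89.1 in wildtype and at 18.3 and 16.2 in Otx2+/AA (log2 fold change -2.33, SE 0.32, adjusted p = 0.00728). The levels in the pools labelled Otx2 (+/-) were close to these, at 17.7 and 22. Btn2a2, a butyrophilin of the immunoglobulin superfamily that acts on T cells, went from 164 and 146 to 22.8 and 40.4 (log2 fold change -2.31, SE 0.29, adjusted p = 0.00428). For this gene the pools labelled Otx2 (+/-) lay between, at 81.8 and 107, and Otx2+/AA was lower than they were by a log2 difference of -1.58 (adjusted p = 0.0188). Cpxm2, a carboxypeptidase-like protein, stood at 946 and 624 in wildtype, and at 184 and 249 in Otx2+/AA. Its wildtype pools differed from each other by less than they differed from either Otx2+/AA pool (log2 fold change -1.87, SE 0.21, adjusted p = 0.00228). A transcript on the opposite strand, Gm15677, shares exon sequence with Cpxm2.

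Tmprss11a, a serine protease anchored in the membrane, fell from 927 and 1024 to 484 and 404 (log2 fold change -1.14, SE 0.14, adjusted p = 0.00428). It was at only 61.1 and 64.0 in the pools labelled Otx2 (+/-), and Otx2+/AA exceeded those by a log2 difference of 2.83 (adjusted p = 1.52e-05). Amigo2, an adhesion protein with leucine-rich and immunoglobulin repeats, fell from 1131 and 947 to 540 and 452 (log2 fold change -1.07, SE 0.15, adjusted p = 0.00843). Its exons overlap those of Pced1b on the opposite strand.

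Ifi202b, of the interferon-inducible family that binds DNA, was at 29.3 and 28.6 in wildtype and had 0 counts in both Otx2+/AA pools. Set against a floor of 3 counts per library, wildtype was at least 10-fold higher (adjusted p = 0.0107). The pools labelled Otx2 (+/-) were unlike each other, at 0.985 and 24.0. Ifi202b belongs to a cluster of closely related genes between which 50-base reads can be divided, so its counts are uncertain.

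Mogat1, an acyltransferase of triglyceride synthesis, was at 39.4 and 67.1 in wildtype and at 5.48 and 10.1 in Otx2+/AA (log2 fold change -2.77, SE 0.47, adjusted p = 0.0282), and BC035947 overlaps it on the opposite strand. Fmo2, a flavin monooxygenase that oxidizes drugs and other foreign compounds, was at 501 and 239 in wildtype and at 64.8 and 74.7 in Otx2+/AA (log2 fold change -2.42, SE 0.31). Fndc1, with fibronectin domains, and the uncharacterized 1500009C09Rik fell by 1.59 and 1.56 on the log2 scale. Steap3, an endosomal ferric reductase of the transferrin cycle, went from 179 and 233 to 81.3 and 102, while the pools labelled Otx2 (+/-) stayed at 188 and 212. The direct comparison of Steap3 between Otx2+/AA and those pools also passed (log2 difference -1.13, adjusted p = 0.0117). Cltrn, or collectrin, which helps amino acid transporters reach the membrane, fell by 1.08 on the log2 scale.

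Of 249 members of the solute carrier family tested, 3 fell and 0 rose, beside 0.172% of all genes in each direction. Slc39a4, the zinc importer ZIP4, fell from 750 and 860 to 448 and 464. Slc24a4, which exchanges sodium for calcium and potassium, fell from 732 and 654 to 407 and 394, and Slc35f1 is described above. Their family's median log2 fold change was -0.07, beside -0.01 for all genes. The remaining genes that fell were Abcg2, the efflux pump of the blood-facing and fluid-facing barriers, Pcnx, Tubb4a, Tmod1, Pdia3 and the small nucleolar RNA Gm22357, which lies inside Gas5 on the same strand. Pcnx shares exon sequence with Gm49749 on the same strand, and Tmod1 with Tstd2 and Pdia3 with Catsper2 on opposite strands. Abcg2 went from 728 and 820 to 482 and 438, the smallest drop of the 25 at -0.76 on the log2 scale.

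Vtn and Sebox are neighbours that fell together. Vtn, the secreted matrix protein vitronectin, lies at 78499091 to 78502324 of chromosome 11 on the plus strand, and Sebox, a homeobox gene, begins 1.12 kb further on at 78503447 on the same strand (GRCm38). Vtn went from 1035 and 1315 to 621 and 609 (log2 fold change -0.94, SE 0.15, adjusted p = 0.0154). Sebox went from 97.0 and 83.6 to 32.9 and 18.2 (log2 fold change -1.81, SE 0.33, adjusted p = 0.0369). Both were lower again in the pools labelled Otx2 (+/-), at 284 and 426 for Vtn and at 2.96 and 3.0 for Sebox. The direct comparison passed for each of them, with log2 differences of 0.79 (adjusted p = 0.0458) and 3.06 (adjusted p = 0.0198) in favour of Otx2+/AA.

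Among the 5 rises that passed in every alternative, Arntl is described with the clock genes below. Cadm1, an immunoglobulin adhesion molecule, stood at 346 and 298 in wildtype and at 1029 and 992 in Otx2+/AA, a 3.12-fold difference (log2 fold change 1.64, SE 0.14, adjusted p = 0.000299). Lrrc18, a leucine-rich repeat protein, went from 34.4 and 39.6 to 135 and 133 (log2 fold change 1.85, SE 0.25, adjusted p = 0.00728). Scrn1, a secernin linked to regulated secretion, rose from 1250 and 1376 to 2456 and 2344. Its pools labelled Otx2 (+/-) were higher still, at 4023 and 4335, and Otx2+/AA lay below them by a log2 difference of -0.80 (adjusted p = 0.00872).

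Wfikkn2 encodes a secreted protease inhibitor that binds growth factors of the myostatin group. It rose from 2077 and 1590 to 3527 and 3827 (log2 fold change 1.00, SE 0.15, adjusted p = 0.0141). The pools labelled Otx2 (+/-) stayed at 1882 and 2002, and the difference between the genotypes passed (log2 difference 0.92, SE 0.14, adjusted p = 0.00395).

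Tcerg1l, a transcription elongation regulator-like gene, had the largest rise, from 11.1 and 30.8 to 148 and 73.7 (log2 fold change 2.41, SE 0.44, adjusted p = 0.0369). Rab6b, a small GTPase of Golgi traffic, went from 13.1 and 23.1 to 108 and 58.6 (log2 fold change 2.20, SE 0.40). In the pools labelled Otx2 (+/-) both stayed near wildtype, at 27.6 and 31.0 for Tcerg1l and at 22.7 and 19.0 for Rab6b. The comparison of the 2 genotypes passed for Tcerg1l (log2 difference 1.92, adjusted p = 0.0108) and for Rab6b (log2 difference 2.00, adjusted p = 0.0109).

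Cacna2d3, an accessory subunit of voltage-gated calcium channels, was at 36.4 and 45.1 in wildtype and at 147 and 150 in Otx2+/AA (log2 fold change 1.86, SE 0.25, adjusted p = 0.00639). The pools labelled Otx2 (+/-) lay on the other side of wildtype, at 5.91 and 17.0, and the genotypes differed by 3.69 on the log2 scale (adjusted p = 0.00022). Sema3e, a secreted guidance cue, rose from 22.2 and 35.2 to 107 and 117, and was at 165 and 167 in the pools labelled Otx2 (+/-). Mcoln3, a cation channel of endosomes and lysosomes, rose by 1.76 on the log2 scale although its wildtype pools, at 169 and 80.3, were far apart. Cybrd1, a ferric reductase, went from 66.7 and 68.2 to 152 and 152, and its level in the pools labelled Otx2 (+/-) was 81.8 and 84.0.

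Lmx1b, a LIM homeodomain factor of the dorsal hindbrain and roof plate, rose from 71.7 and 69.3 to 151 and 169 (log2 fold change 1.17, SE 0.22, adjusted p = 0.0453). The antisense-class RNA C130021I20Rik lies 0.682 kb from it on the opposite strand and rose from 39.4 and 29.7 to 111 and 88.9. Lmx1b was the only call among 19 choroid plexus transcription factors tested, beside 0.345% of all genes, and their median log2 fold change was 0.06. Zic4, at 326 and 299 in wildtype and 450 and 484 in Otx2+/AA, did not pass (adjusted p = 0.166), and neither did Msx1 or Foxj1, at log2 fold changes of -0.01 and -0.01.

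The other genes that rose included Vim, the intermediate filament vimentin (1860 and 1895 to 3157 and 3316), and Cdh1, or E-cadherin (137 and 156 to 310 and 309). Cdh1 was the only call among 54 cadherins and protocadherins tested, beside 0.345% of all genes. Edn3, the peptide hormone endothelin 3, went from 476 and 382 to 762 and 922. Arrb1, the receptor adaptor beta-arrestin 1, went from 490 and 451 to 903 and 857. Arl4c, C1ql3, Pcp4, Ildr2, Arhgap20 and Fam216b also rose, by 0.79 to 1.58 on the log2 scale, and Arhgap20, Fam216b, C1ql3 and Ildr2 each share exon sequence with a transcript of the opposite strand and Pcp4 with Igsf5 on the same strand. Without strand in the counting, reads of opposite partners cannot be told apart.

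**Figure D2:**
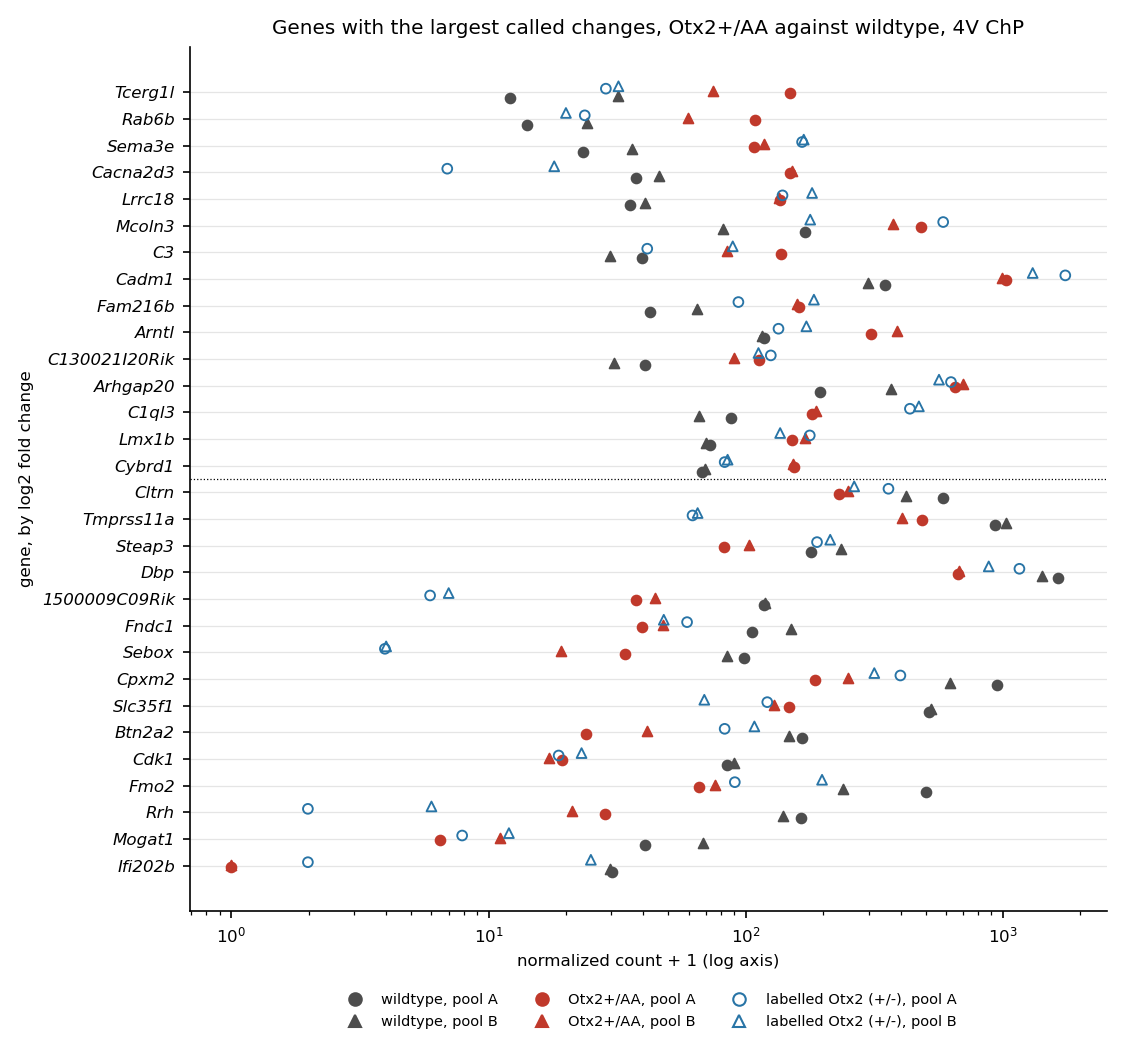
Normalized count plus 1 (horizontal log axis) of the 15 genes with the largest rise and the 15 with the largest fall in Otx2+/AA against wildtype, ordered by log2 fold change, with each pool as a point. Filled circles and triangles are pools A and B of wildtype (grey) and Otx2+/AA (red), and open symbols are the pools labelled Otx2 (+/-). The red and grey points of a gene do not overlap, in genes that were chosen on these same pools.

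Calls were counted around Otx2 itself. Within 10 Mb of Otx2, 153 genes were tested and 0 passed, with 13 at an unadjusted p under 0.05 by edgeR. Over all genes, 0.345% were called and 8.91% had an unadjusted p under 0.05. At that share, 0 calls among 153 genes cannot show a lack of calls there. The 3 calls on chromosome 14 were Lrrc18, Cacna2d3 and Fam216b, at 15.6, 18.9 and 29.4 Mb from Otx2. Chromosome 1 had the largest share of calls, 7 of 854 genes tested (0.82%). Among them, Gm22357, Fmo2, Ildr2 and Ifi202b lie between 161036057 and 173982744, and the reason was not tested. Promoters of the called genes were searched for the letters TAATCC on both strands, from 250 bases before to 50 bases after each RefSeq start site (GRCm38.p6). Of 52 promoters matched to 43 of the called genes, 4 held them, which is 7.69%. The share was 7.06% over all 32851 promoters and 5.86% over the 13564 promoters of genes tested. By direction, 3 of 30 promoters of genes that fell (10%) and 1 of 22 of genes that rose (4.55%) held them, counts too small to read a difference from. The 3 promoters with the letters before the start site are printed below in the 5′ to 3′ direction of the gene, with the letters or their reverse complement in capitals, because these are the called genes where the OTX2 class of recognition sequence was present.
Ifi202b, chr1:173982864-173982919, minus strand: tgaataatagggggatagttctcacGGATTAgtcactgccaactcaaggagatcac
Slc24a4, chr12:102128531-102128586, plus strand: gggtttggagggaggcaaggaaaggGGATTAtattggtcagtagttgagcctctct
Fam216b, chr14:78089216-78089257, minus strand: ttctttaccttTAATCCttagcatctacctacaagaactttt
The fourth was Cltrn, where the letters span the start site. A match describes these letters in these windows and is not a measurement of binding.

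The genes that the study lists as changed by Otx2 knockdown in both of its models were called in Otx2+/AA only on the listed side, 5 of those listed as higher and 3 of those listed as lower, beside 0.172% of all genes in each direction. That list was chosen in part on the same wildtype pools and on the pools labelled Otx2 (+/-), so it is not independent evidence of direction. Of 42 genes listed as higher, 39 were tested, Mup5 and Shisal1 were too low and Smrp1 was not matched. Of the 39, Arrb1, Cadm1, Edn3, Lrrc18 and Vim rose and 0 fell. A further 15 had an unadjusted p under 0.05 on the higher side and did not pass. Over all genes 8.91% met that p in either direction. Plin4, a lipid droplet coat protein, met it on the lower side and did not pass (298 and 215 in wildtype, 169 and 197 in Otx2+/AA). The median log2 fold change of the 39 was 0.48, beside -0.01 for all genes, and it was 0.61 without Otx2+/AA pool A and 0.24 without pool B. Summed over all members, the list stood at 25255 and 30414 in wildtype, 39036 and 41628 in Otx2+/AA and 69831 and 62949 in the pools labelled Otx2 (+/-).

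All 34 genes listed as lower were tested, and Pcnx, Slc35f1 and Tmprss11a fell while 0 rose. A further 18 had an unadjusted p under 0.05 on the lower side and did not pass, beside 8.91% of all genes in either direction. The median log2 fold change was -0.36. Igf2, the growth factor secreted into the fluid, was at 42261 and 43639 in wildtype, 29827 and 30477 in Otx2+/AA and 17412 and 17038 in the pools labelled Otx2 (+/-). The comparison with wildtype did not pass (log2 fold change -0.52, SE 0.13, adjusted p = 0.117). That with the pools labelled Otx2 (+/-) did (log2 difference 0.81, adjusted p = 0.0106). B3galt2, a galactosyltransferase, was at 235 and 181 in wildtype and at 97.7 and 43.4 in Otx2+/AA, with an adjusted p of 0.0547.

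**Figure D3:**
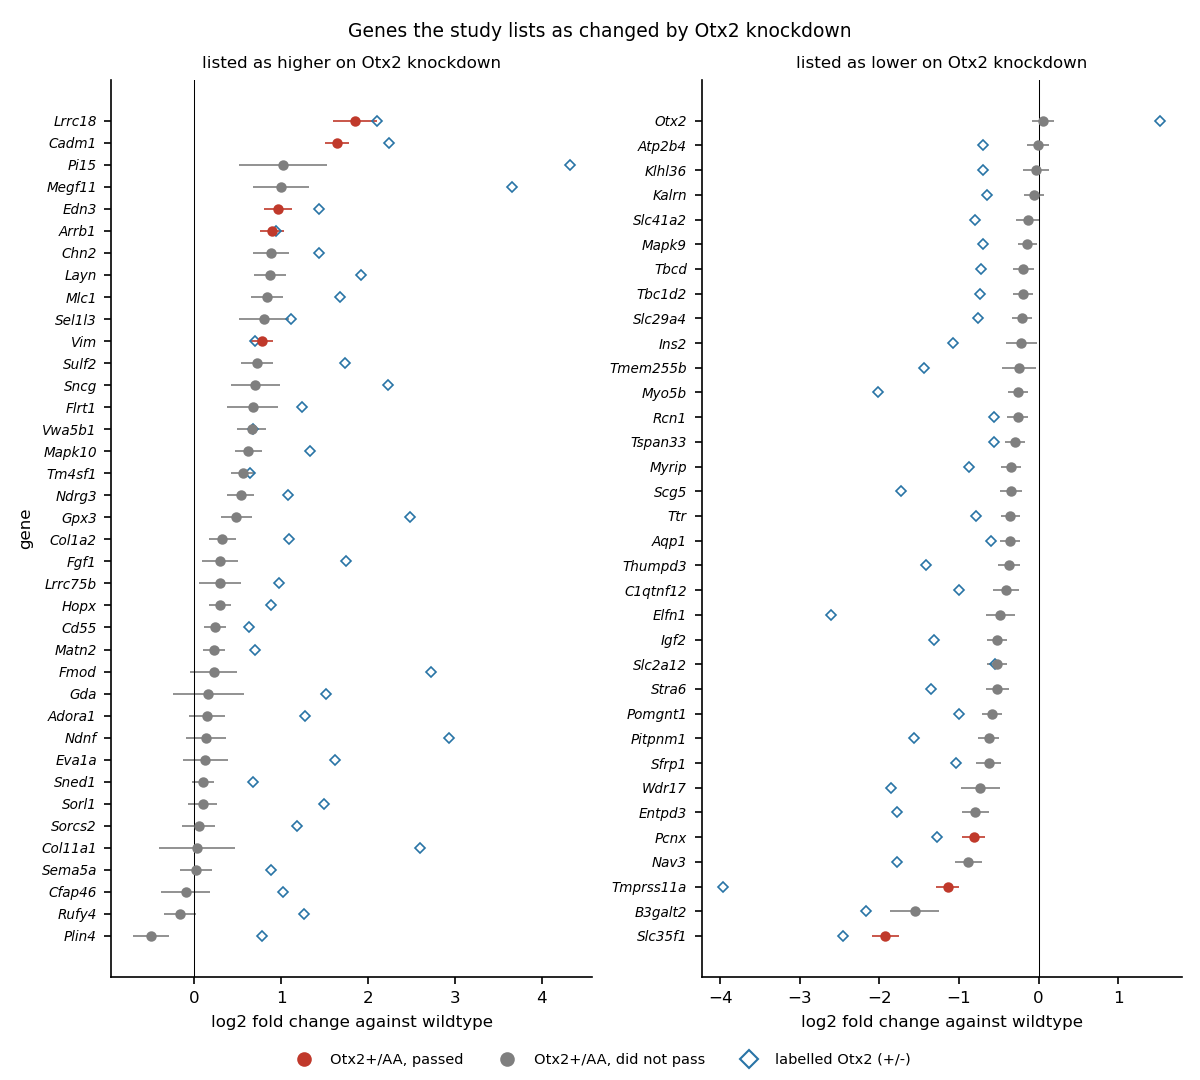
Log2 fold change against wildtype (horizontal axis) of 38 genes listed as higher (left) and 34 listed as lower (right) on Otx2 knockdown, as circles with standard errors for Otx2+/AA and as open diamonds for the pools labelled Otx2 (+/-), which were used to choose the list. Red circles passed an adjusted p of 0.05 in Otx2+/AA, 5 on the left and 3 on the right, and Otx2 itself is at 0.06 in Otx2+/AA.

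The direct comparison of Otx2+/AA with the pools labelled Otx2 (+/-) called 393 of 14578 genes, 2.7% of them, with 194 higher in Otx2+/AA (1.33%) and 199 lower (1.37%). With libraries scaled to total counts the split was 294 higher and 183 lower, and the median of all genes was 0.07 on the log2 scale. Of the genes listed as higher on knockdown, 41 were tested and 25 were lower in Otx2+/AA, with a median log2 difference of -0.85. Of those listed as lower, 15 of 34 were higher in Otx2+/AA and 1, Otx2, was lower. Both lists were chosen in part on these Otx2 (+/-) pools, so these counts are not independent evidence of direction. The Otx2 count is over a whole transcript and does not separate the copies of the gene. Gpx3, the secreted glutathione peroxidase, was at 679 and 513 in wildtype, 694 and 986 in Otx2+/AA and 3067 and 3603 in the pools labelled Otx2 (+/-), a log2 difference between the genotypes of -1.99 (SE 0.18, adjusted p = 0.000181). These genotypes also differed in Ndnf (log2 difference -2.80) and Megf11 (-2.65).

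Among all genes, the largest called differences toward the pools labelled Otx2 (+/-) were those of Stab2, Nat8f2, Mup5, Shh and Cldn19. Shh, the secreted Sonic hedgehog signal, was at 0 in both wildtype pools, 2.74 and 3.03 in Otx2+/AA and 74.9 and 53.0 in the pools labelled Otx2 (+/-). Stab2, a scavenger receptor of sinusoidal endothelium, was uneven within groups, at 8.08 and 427 in wildtype and at 153 and 1010 in those labelled Otx2 (+/-), against 4.57 and 5.05 in Otx2+/AA. The largest differences toward Otx2+/AA were those of Sult1c1, Sptlc3, Baiap2l2, Chrnb4 and Ildr1. Baiap2l2, a membrane-curving protein, was at 69.7 and 83.6 in wildtype and 91.3 and 78.8 in Otx2+/AA, and at 4.93 and 5.0 in the pools labelled Otx2 (+/-) (log2 difference 4.07, SE 0.39, adjusted p = 0.00022). Sult1c1, a sulfotransferase, was at 33.8 and 45.5 in Otx2+/AA, with 10.1 and 12.1 in wildtype and at 0 and 1.0 in those labelled Otx2 (+/-).

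For the 4V ChP of the conditional knockdown, whose pools are shared by none of the comparisons here, the genes tabled as most changed showed 0 calls in Otx2+/AA. Of 10 tabled as higher, 7 were tested, all with a log2 fold change above 0 (median 0.31), and Gpx3 alone had an unadjusted p under 0.05. The other 3, Tmigd1, 9030619P08Rik and Mup5, were at or below 8.08 in all 4 pools. Of 10 tabled as lower, 8 were tested, all with a log2 fold change below 0 (median -0.51). An unadjusted p under 0.05, found in 8.91% of all genes, was met by 5 of the 8. Those were B3galt2, Slc26a7, Crhr2, Ngfr and Elfn1. Slc26a7, an anion exchanger, was at 684 and 434 in wildtype and 345 and 253 in Otx2+/AA (adjusted p = 0.11), and DESeq2's Wald test called 2 of the 8.

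Circadian clock genes were called in both directions. The clock is a loop in which BMAL1, encoded by Arntl, pairs with CLOCK to switch on genes such as Per1, Per2, Dbp and Tef through E-box sequences, and the PER proteins then repress the pair. Arntl stood at 117 and 114 in wildtype and at 306 and 385 in Otx2+/AA, a 2.96-fold rise (log2 fold change 1.57, SE 0.19, adjusted p = 0.00428). Dbp, an output factor of the clock, stood at 1633 and 1417 in wildtype and at 668 and 676 in Otx2+/AA, a 2.28-fold fall (log2 fold change -1.19, SE 0.13, adjusted p = 0.00228). Both genes moved away from wildtype in both Otx2+/AA pools, and both passed in every alternative run. Arntl shares exon sequence with Gm45355 and Dbp with Sphk2, each on the opposite strand. In the pools labelled Otx2 (+/-), Arntl was at 133 and 171 and Dbp at 1157 and 879. Arntl differed between the genotypes (log2 difference 1.18, adjusted p = 0.00709), and for Dbp the difference of -0.60 did not pass (adjusted p = 0.0711). Npas2 was also higher in Otx2+/AA than in those pools (log2 difference 2.05, adjusted p = 0.0121). Per2 (-1.09, adjusted p = 0.0141) and Per3 (-0.86, adjusted p = 0.015) were lower. So were Tef (-0.69, adjusted p = 0.0229) and Ciart (-2.58, adjusted p = 0.0348). The rest of the clock list did not pass there, where 2.7% of all genes did.

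Of 17 clock genes tested, 10 had an unadjusted p under 0.05, 3 on the higher and 7 on the lower side. Only Arntl and Dbp passed. Over all genes these shares were 8.91% and 0.345%. Per2 was at 712 and 360 in wildtype and 241 and 238 in Otx2+/AA (log2 fold change -1.17, SE 0.25, adjusted p = 0.0803), with its wildtype pools unlike each other. Tef, a relative of Dbp, was at 2068 and 1870 in wildtype and 1393 and 1256 in Otx2+/AA (adjusted p = 0.0898). Per3, Per1, Nr1d2 and Bhlhe41 also had lower values at an unadjusted p under 0.05, and Nfil3 a higher one. Nr1d1 and Clock showed values of -0.18 and 0.18 on the log2 scale (adjusted p = 0.852 and 0.804). The median over the 17 was -0.22, beside -0.01 for all genes, and it was -0.38 without Otx2+/AA pool A. The time of day at which each pool was dissected is not given in the sources used here, and its part in these values was not tested.

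**Figure D4:**
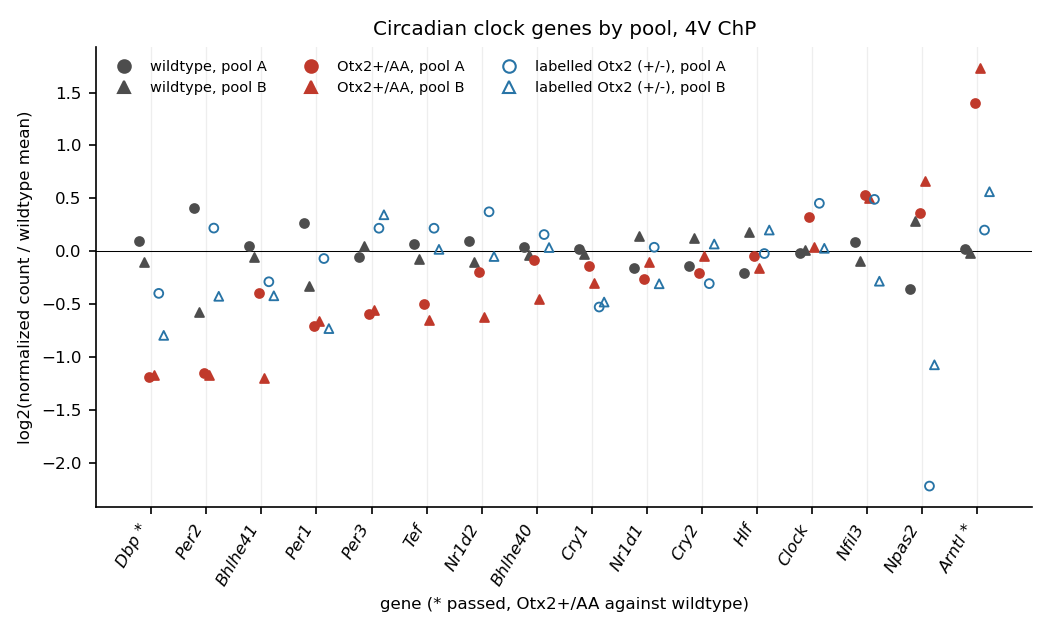
Log2 of the normalized count over the wildtype mean (vertical axis) for 16 of the clock genes ordered by log2 fold change, each pool as a point with symbols as in the plot of named genes. The red Otx2+/AA points of Dbp lie near -1.2 and those of Arntl above 1.3, clear of the grey wildtype points, and in Per2, Bhlhe41, Per1, Per3 and Tef the red points lie below both grey points in genes that did not pass.

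Clock promoters were searched for the E-box letters CACGTG and for TAGGTCA, the core of the element that REV-ERB repressors bind, on both strands of the same RefSeq windows. These letters were chosen after the values were seen. Of 15 clock genes matched, 5 held the E-box (Bhlhe41, Ciart, Cry1, Per1 and Tef), which 7.15% of all promoters hold, and 2 held TAGGTCA (Arntl and Nfil3), which 2.61% of all promoters hold. Dbp, Per3 and Nr1d2, which had lower values, held neither. Cry1 held the E-box at 159 and 154 in wildtype and 141 and 127 in Otx2+/AA (adjusted p = 0.844). Ciart held it too and did not pass the count filter against wildtype. Its wildtype pools were unlike each other, at 68.7 and 5.5, against 8.22 and 5.05 in Otx2+/AA. A stretch of each gene with a match is printed in the direction of the gene with the letters in capitals, to show what the matches look like.
Arntl, chr7:113207530-113207558, plus strand: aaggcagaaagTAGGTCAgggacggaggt
Nfil3, chr13:52981034-52981062, minus strand: gcgctcggaacTGACCTActaacacacat
Per1, chr11:69098772-69098799, plus strand: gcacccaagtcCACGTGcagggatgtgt
Bhlhe41, chr6:145865557-145865584, minus strand: ggtacgttccgCACGTGagctgggtgct
Tef, chr15:81802535-81802562, plus strand: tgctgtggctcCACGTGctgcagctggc
Cry1, chr10:85185098-85185125, minus strand: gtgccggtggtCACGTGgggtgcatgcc
Ciart, chr3:95882328-95882355, minus strand: gcatctagagtCACGTGttgccggtaag
No match in the Dbp window says only that those letters are not in it.

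Chaperones and folding enzymes of the endoplasmic reticulum, where secreted proteins mature, had 1 call among 19 tested, beside 0.345% of all genes. Pdia3, a disulfide isomerase, fell from 4050 and 4068 to 2106 and 2612 (log2 fold change -0.79, SE 0.14, adjusted p = 0.0344), and did not pass with total counts, all 6 pools in 1 fit or summed transcripts. A total of 12 had an unadjusted p under 0.05, all on the lower side, beside 8.91% of all genes, and the list's median was -0.45. The levels also followed the pool letter. The summed list was at 271504 and 182695 in wildtype pools A and B, 193931 and 159409 in Otx2+/AA, and 274198 and 179515 in the pools labelled Otx2 (+/-). Hspa5, the chaperone BiP, was at 76229 and 43964 in wildtype and 47277 and 37289 in Otx2+/AA, and Manf was at 7914 and 3347 against 3114 and 3224. For both genes wildtype pool A stood apart, and the list's median was -0.11 without it and -0.66 without wildtype pool B. Among 12 cytosolic heat shock genes 0 passed and 4 had an unadjusted p under 0.05, 3 of them lower, with Hspa1a at 73.8 and 50.6 in wildtype and 29.2 and 26.3 in Otx2+/AA.

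Of 29 factors that the epithelium secretes, 0 passed and 10 had an unadjusted p under 0.05 by edgeR, all on the lower side. That p was met by 8.91% of all genes. The median of the 29 was -0.18, with 6 values above 0. Ttr, or transthyretin, a carrier of thyroid hormone and the most abundant message here, was at 2860669 and 2719210 in wildtype, 2132633 and 2245508 in Otx2+/AA and 1491258 and 1749226 in the pools labelled Otx2 (+/-). The difference from wildtype did not pass (log2 fold change -0.36, SE 0.12, adjusted p = 0.321). Apoe was at 81308 and 68754 against 42618 and 55120 (adjusted p = 0.117), Igfbp2 at 49202 and 46766 against 33565 and 33838 (adjusted p = 0.117), and Clu, or clusterin, at 39777 and 38051 against 25388 and 29760 (adjusted p = 0.16). The others of the 10 were Igf2, Sfrp1, Timp3, Bmp6, Tgfb2 and Sostdc1. Enpp2, or autotaxin, was at 843024 and 826405 against 735163 and 681347 (adjusted p = 0.625).

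Transporters that move ions and water showed 0 calls among 28 tested, with 7 at an unadjusted p under 0.05 by edgeR. Their median was -0.05, and 8.91% of all genes met that p. Kcnj13, a potassium channel of the apical membrane, was nearest at 14100 and 11096 in wildtype and 8012 and 8251 in Otx2+/AA (adjusted p = 0.087). The water channel Aqp1 was at 7209 and 7417 against 5446 and 6016 (adjusted p = 0.353). The cotransporter Slc12a2 and the bicarbonate transporter Slc4a5 had log2 fold changes of -0.16 and -0.01. Of 19 tight junction genes tested 0 passed and 3 had an unadjusted p under 0.05 by edgeR, Marveld2 and Cldn2 among them at -0.80 and -0.39. Of 10 listed genes of the retina and pigment epithelium tested, a list that does not hold Rrh, 0 passed, with 4 at an unadjusted p under 0.05, and Crx was at 0 in all 4 pools.

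Antigen presentation genes of MHC class II had 1 call among 7 tested, beside 0.345% of all genes. H2-Eb1, a chain of that complex, rose from 551 and 425 to 934 and 821 (log2 fold change 0.84, SE 0.16, adjusted p = 0.0427), and exceeded the pools labelled Otx2 (+/-), at 550 and 561, by a log2 difference of 0.66 (adjusted p = 0.0278). H2-Aa, H2-Ab1, H2-DMb1 and Cd74 had an unadjusted p under 0.05 on the higher side, and the median was 0.61. Ciita, the class II activator, was at 19.2 and 14.3 in wildtype and 23.7 and 28.3 in Otx2+/AA (adjusted p = 0.789). The 18 macrophage markers summed to 4185 and 3860 in wildtype and 4827 and 4882 in Otx2+/AA. In the pools labelled Otx2 (+/-) the sums were 4433 and 4433. Members were unlike each other, with log2 fold changes against wildtype from -0.49 for Cd68 to 0.78 for Adgre1. Of 17 macrophage markers tested 0 passed and 5 had an unadjusted p under 0.05, all higher, beside 8.91% of all genes. The part of the macrophage markers in the class II values was not tested.

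C3, the central component of complement, rose from 38.4 and 28.6 to 136 and 83.8 (log2 fold change 1.70, SE 0.32, adjusted p = 0.0427). It was the only call among 18 complement genes tested, beside 0.345% of all genes, and C1qa, C4b and Cfb did not pass. Of 33 listed interferon-inducible genes tested, a list that does not hold Ifi202b, 0 passed and 4 had an unadjusted p under 0.05 by edgeR, 2 in each direction, with a median of 0.00. Of 30 genes of the oxidative stress response, 0 passed and 3 had an unadjusted p under 0.05, and the median was 0.02. That p was met by 8.91% of all genes. Of 19 immediate early genes tested, which respond to handling and dissection, 0 passed and Ier5 alone had an unadjusted p under 0.05, with a median of 0.04. Collagens, ribosomal proteins, histones and genes of the mitochondrial genome had 0 calls among 35, 69, 36 and 22 tested, with 6, 4, 2 and 6 at an unadjusted p under 0.05 by edgeR and medians of 0.03, -0.15, 0.02 and -0.01.

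The choroid epithelium markers were present in every pool, and none of the 12 passed between Otx2+/AA and wildtype, with 4 at an unadjusted p under 0.05 by edgeR, all lower. Markers of other cell types had 0 calls in each list. Beside 8.91% of all genes with an unadjusted p under 0.05, 4 of 10 astrocyte markers tested had one, all higher. Of these, Aqp4 was at 239 and 243 in wildtype and 604 and 329 in Otx2+/AA. Neuron markers differed in level, and Gad1, Rbfox3 and Neurod1 were at or below 12.1 in all 4 pools. Map2 was at 711.2 and 611.4 in wildtype and 922.2 and 553.5 in Otx2+/AA. Syt1 was at 80.82 and 126.5 against 126.9 and 148.5, and Snap25 at 63.64 and 111.1 against 64.83 and 54.54. Endothelial, mural and ependymal sums overlapped between the groups, at 9450 and 10326 against 9463 and 11068 for endothelium. Fibroblast markers were at 23499 and 21046 against 19973 and 22243, and cerebellar markers at 2755 and 2647 against 3284 and 2923. Most of the cerebellar sum was Zic1, at 2417 and 2298 against 2856 and 2519. Counts of the Y-linked genes Ddx3y, Kdm5d, Eif2s3y and Uty were 0 in the wildtype pools and at most 0.913 in the Otx2+/AA pools, and Xist was at 3066 and 3337 in wildtype and 2737 and 2276 in Otx2+/AA. The part of these values in the calls was not tested.

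**Figure D5:**
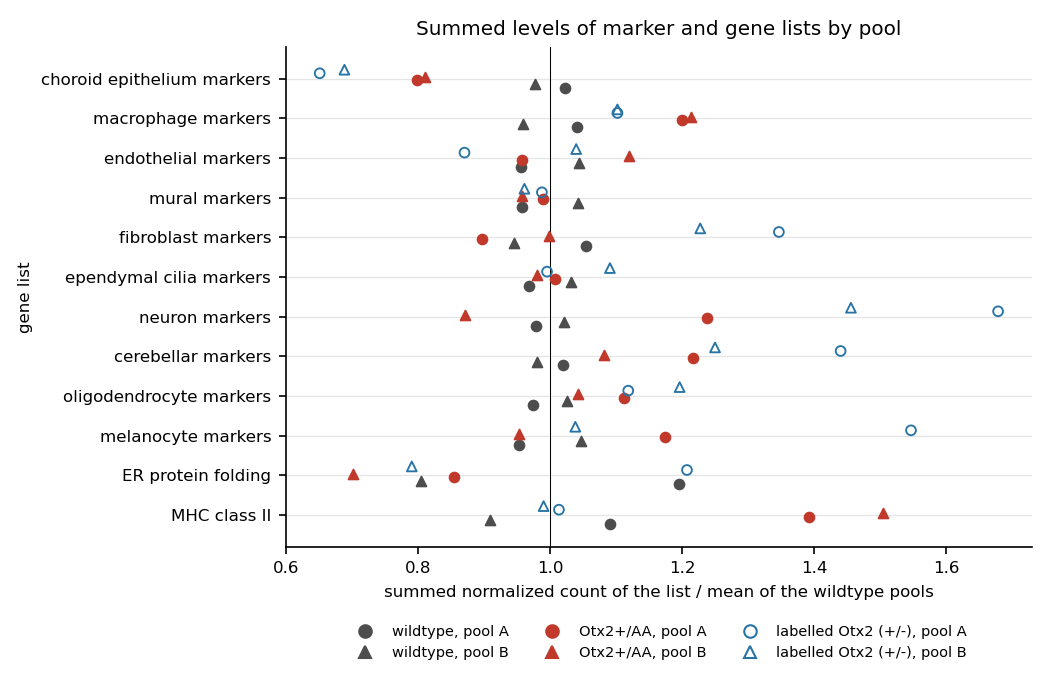
Summed normalized count of each gene list over the mean of the wildtype pools (horizontal axis), by pool, with symbols as in the plot of named genes. The Otx2+/AA pools lie above both wildtype pools for the macrophage, cerebellar, oligodendrocyte and MHC class II lists, and the cerebellar sum is mostly Zic1. They lie below both for the choroid epithelium list, whose sum is mostly Ttr, and the endoplasmic reticulum list separates pools A from pools B. These positions are no test, since 2 pools on each side allow no exact permutation p below 0.333.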

How the data were processed

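Choroid plexus RNA of the 4V was measured in 2 Otx2+/AA, 2 wildtype and 2 Otx2 (+/-) pools. The authors deposited counts, whole numbers of reads on each Ensembl transcript without normalization. The submitters' processing notes name bcl2fastq 1.8.4, Bowtie 0.12.9, SAMtools, HTSeq 0.5.3, DESeq 1.8.3 and the mouse build mm10. The strand setting of the counting is not given in the sources used here. Reads appear on each overlapping transcript, and the study's text describes PolyA+ selection where the labels describe ribosomal RNA depletion.

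Of 95533 transcripts, 82807 matched GENCODE vM21, and for each of 33984 genes the transcript holding most counts across the 22 files stood for the gene, because summing could count the same read repeatedly. The matched transcripts held 89.1 to 89.8% of the 36934922 to 43790479 counts of a library. Genes that passed filterByExpr entered the quasi-likelihood test of edgeR 4.0.16 (R 4.3.3) with TMM factors. The Benjamini-Hochberg adjustment covered every gene tested, at a threshold of 0.05. Each comparison used its own 4 pools and no covariate. The biological coefficient of variation was 0.126. Normalized counts were scaled over the 6 pools, and a standard error is the log2 fold change over the root of the test statistic. With 2 pools on each side, the smallest p of an exact permutation test is 0.333. DESeq2 1.42.0, limma 3.58.1, Python 3.11.15, pandas 2.3.3, NumPy 2.4.6 and matplotlib 3.10.9 served the alternatives, tables and figures, and the fits were tested on simulated data.

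Genes named were Otx2, the 15 largest called changes in each direction with a mean count above 10, up to 4 members of each list, and the 5 largest called differences from the Otx2 (+/-) pools in each direction. Other genes in the text were named after their values were seen, as were the clock promoter letters. The members and lists were chosen with earlier results of these data known. Promoters came from RefSeq on GRCm38.p6. Depth sets counting error alone, and 2 pools a group limit the precision. Some genes of the lists are not reported here by name.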

Additional observations from a re-analysis of the deposited data

How the results depend on the processing

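The count of 50 calls against wildtype was 51 with DESeq2 size factors, 38 with total counts, 54 with a mean count above 10 as the filter and 50 with the transcript chosen over the 6 files. It was 122 with DESeq2's Wald test, 390 with no filter on low counts, 18 with all 6 pools in 1 fit and 22 with counts summed over transcripts. Of the 50 genes, 18 passed with all 6 pools in 1 fit, 21 with summed transcripts and 32 with total counts, and none changed direction under any alternative run. Leaving out 1 pool gave 35 to 382 calls, 149 without wildtype pool A and the most without wildtype pool B, and the lone pool of a group was then assumed to vary like the other group. Pool letters are shared by the genotypes, but the labels do not say that a letter marks a litter or a day, and the deviations of Otx2+/AA and wildtype pools with the same letter correlated at 0.066 over 14382 genes, those of Otx2+/AA and Otx2 (+/-) at 0.0853 and those of Otx2 (+/-) and wildtype at 0.348. With the letter as a replicate block, 549 genes passed, 258 higher and 291 lower, all 50 among them. Against the Otx2 (+/-) pools, 393 calls became 526 with the replicate block, 248 with summed transcripts and 403 to 790 without 1 pool, and lay between 333 and 477 under the other settings. The Otx2-201 transcript, at 0.07, ranged from -0.048 to 0.19 without 1 pool, reversing without wildtype pool B, and 0 of the 8 transcripts passed with total counts, the block or any pool left out. The Otx2 gene reversed to -0.011 with summed transcripts and to -0.064 without wildtype pool B, far from passing. Called members of the lists of genes higher and lower on knockdown, 5 and 3, ranged from 2 to 17 and from 2 to 14, and those of the folding list, 1, from 0 to 10. The cause of these shifts was not tested.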
